A study of Mus musculus with 6 samples.

Results

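The superficial zone and joint identity genes are 10 genes that mark the joint surface or act in forming and keeping it. They were taken by gene name from a list, with no measured value in the rule, though the list was chosen with earlier results of these data known. All 10 have a row among the 26969 genes of the table: Prg4, Gdf5, Erg, Creb5, Osr1, Osr2, Foxo1, Foxo3, Barx1 and Scx. They were measured by poly(A) RNA sequencing in 6 libraries of wild-type (wt) mouse chondrocytes, the resident cells of cartilage. The libraries form 2 groups of 3, named mAC_Mito and mAC in the description field. The title and treatment entries give vehicle for the mAC_Mito libraries and mitochondria for the mAC libraries, so the labels disagree on which group received transplanted mitochondria. The groups are therefore called by their description names. Differences are given as mAC_Mito minus mAC and are not read as a response to mitochondria. The labels state neither the animals' age, nor the joint or zone of origin, nor the dose or duration of the transfer.

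At the surface of a joint, flattened chondrocytes and the lining cells of the synovium secrete lubricin, the product of Prg4, which lets cartilage surfaces slide. The joint is laid down in the embryo as an interzone of cells that express the BMP-family ligand Gdf5. Erg is an ETS transcription factor of articular chondrocytes and of endothelium. Creb5 is a CRE-binding factor needed for Prg4 expression in bovine superficial zone chondrocytes. The zinc finger factors Osr1 and Osr2 act in mouse joint formation, and the homeobox factor Barx1 marks mesenchyme at forming joints and in the face. Foxo1 and Foxo3 are forkhead factors that support cartilage maintenance, and Foxo1 promotes Prg4 expression. Scx, or scleraxis, is the basic helix-loop-helix factor of tendon and ligament progenitors.

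The members split into 7 genes expressed at 1 FPKM or more and 3 far below 1 FPKM. FPKM is the read count divided by the length of the gene model and by library depth, so it allows levels of different genes to be compared. Prg4 was the most abundant, at a mean of 24.3 FPKM over the 6 libraries (SD 7.18), rank 1855 of the 26969 genes. Scx followed at 13.7 (SD 1.96), Erg at 7.33 (SD 0.823), Foxo3 at 6.03 (SD 0.976), Osr1 at 4.7 (SD 0.693), Foxo1 at 3.05 (SD 0.453) and Gdf5 at 1.81 FPKM (SD 0.312). Barx1 was at 0.143 (SD 0.0928), Osr2 at 0.0341 (SD 0.0248) and Creb5 at 0.028 FPKM (SD 0.021). The step between Gdf5 and Barx1 was 12.7-fold, the widest between neighbours in this order.

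Some neighbours in that order were not separated by the spread over libraries. The ranges of Prg4, Scx and Erg did not overlap, and neither did those of Foxo1 and Gdf5 or of Gdf5 and Barx1. Erg exceeded Foxo3 in 4 of 6 libraries, Barx1 exceeded Osr2 in 5 of 6 and Osr2 exceeded Creb5 in 3 of 6. Foxo3 exceeded Osr1, and Osr1 exceeded Foxo1, in 6 of 6 libraries each, although the ranges overlapped. The order of Prg4 and Scx turned with the length used. CPM (counts scaled to library size, here with TMM factors) per kilobase of the longest coding transcript were 30.7 for Scx (SD 3.39) and 28.4 for Prg4 (SD 9.5). By that length Creb5 also stood above Osr2, at 0.103 (SD 0.0751) against 0.09 (SD 0.0586). Both differences were smaller than these SDs over libraries. The counts were those of the whole gene, not restricted to that transcript.

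**Figure D1:**
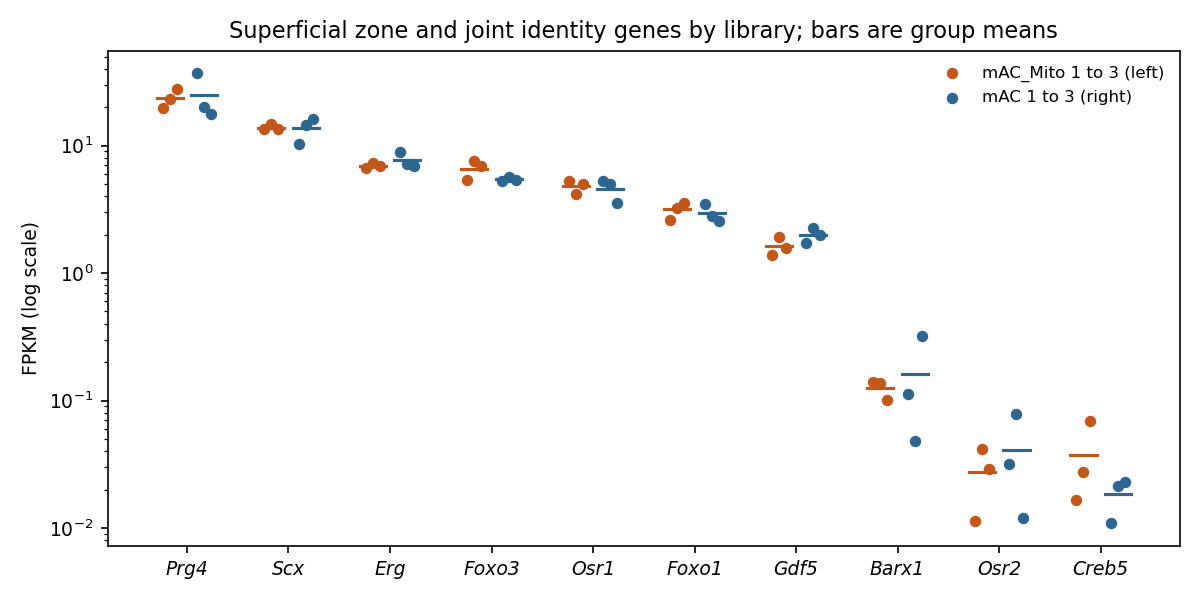
FPKM of the 10 genes on a log axis, 1 point per library with mAC_Mito to the left and mAC to the right; bars are group means of 3 libraries. Prg4 through Gdf5 lie above 1 FPKM in every library, and Barx1, Osr2 and Creb5 lie at or below 0.32 FPKM.

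No member separated the groups. Of the 9 members that passed the filter on low counts, 0 had a Benjamini-Hochberg adjusted p under 0.05 in edgeR's quasi-likelihood test, where 0.0113% of the 17645 genes tested did. At an unadjusted p under 0.05 there were 0 of 9, with edgeR, DESeq2 and limma alike, against 3.19% of all genes with edgeR, 3.44% with DESeq2 and 3.1% with limma. The libraries of the groups overlapped for all 10 members, and 8.31% of tested genes had groups without overlap. Among the 9, 5 log2 fold changes were above 0 and 4 below, and their median was 0.0029, beside 0.0016 over all genes tested. Each member's adjusted p in edgeR was 0.99992. The labels do not say whether replicates are separate cultures or animals, and the spread behind the p-values may be technical. In bulk RNA a lower level cannot be told apart from fewer cells of the kind that express the gene.

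**Figure D2:**
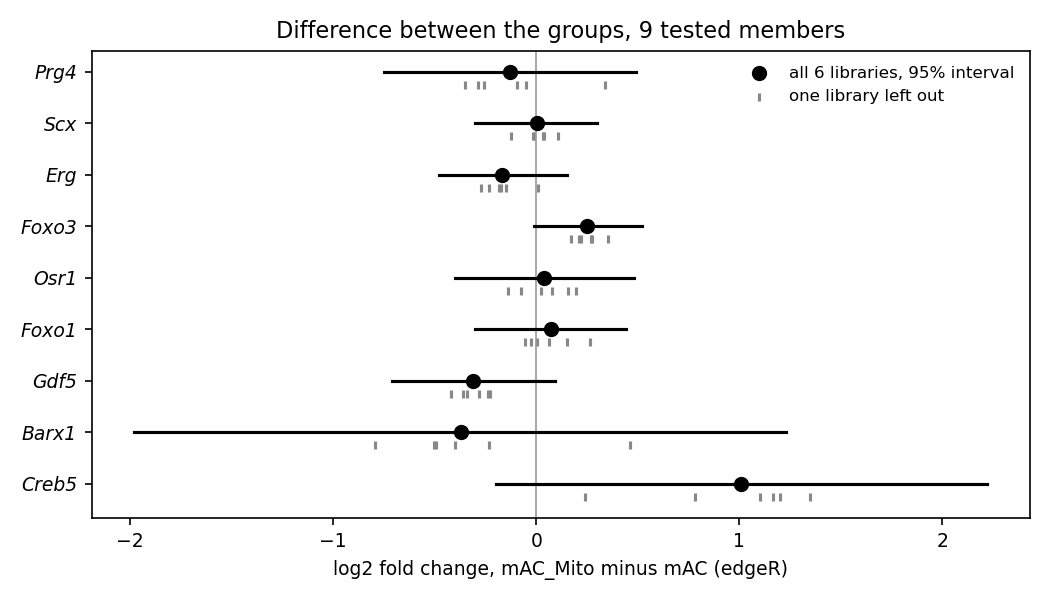
Log2 fold change, mAC_Mito minus mAC, of the 9 tested members with 95% intervals from edgeR's quasi-likelihood test (black, 3 libraries a group); grey ticks are the same estimate with 1 library left out. Every interval includes 0, and the widest belong to Barx1 (-1.98 to 1.23) and Creb5 (-0.2 to 2.22).

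Prg4, the lubricant gene, was at 19.7, 23.1 and 27.9 FPKM in mAC_Mito 1, 2 and 3. In mAC 1, 2 and 3 it was at 37.0, 20.1 and 17.7 FPKM. The mAC group held both the highest and the lowest library, and the mAC_Mito values lay between them. Prg4 had a log2 fold change of -0.13 (standard error 0.27, 95% interval -0.75 to 0.49). Without mAC 1 it was 0.336, opposite in sign, with an unadjusted p under 0.05 and an edgeR adjusted p of 0.989. Prg4 varied more than genes of its abundance: edgeR's biological coefficient of variation, the spread between libraries of a group beyond counting error, was 23.9% for Prg4 and 12.0% on the trend fitted over all genes. Prg4 lies on chromosome 1 (150449412 to 150466165, minus strand). Of its exonic bases, 204 also belong to exons of Tpr, a nuclear pore gene on the opposite strand with 9434 to 11084 counts a library. On TMM-scaled CPM, Tpr was highest in mAC 1 (194.7) and lowest in mAC 3 (146.8), with 148.4 to 169.2 in the other libraries. Prg4 had the same extreme libraries, at 196.3 and 84.5 CPM. Use of strand in counting is not given in the sources used here. The part of Tpr reads in the Prg4 value was not tested.

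The genes whose library pattern was most like that of Prg4 were taken from 6605 genes with a mean of at least 5 FPKM. Likeness was the root mean square difference, over 6 libraries, between the 2 genes' log2 CPM, each centred on its own mean. The 5 nearest were Atn1 (0.124), Phlda1 (0.127), the pseudogene Itih5l-ps (0.13), Creb3l1 (0.157) and Ubap2l (0.165), where the median over the 6605 genes was 0.419. They were chosen for this pattern, so its match to Prg4 is a description. Atn1, the atrophin corepressor, was at 17.4, 17.6 and 21.9 FPKM in mAC_Mito 1, 2 and 3 and at 26.2, 15.7 and 12.0 FPKM in mAC 1, 2 and 3. None of the 5 is a member or a gene of the lists used below.

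Gdf5, the ligand of the interzone, was at 1.38, 1.93 and 1.58 FPKM in mAC_Mito 1, 2 and 3, and at 1.72, 2.25 and 1.99 FPKM in mAC 1, 2 and 3. mAC_Mito 2 lay inside the mAC range and the other two mAC_Mito libraries lay below it. This gave a log2 fold change of -0.31 (standard error 0.18, 95% interval -0.71 to 0.09, unadjusted p = 0.111 in edgeR's model). It kept its sign in each fit with 1 library left out, with values of -0.422 to -0.226. As a ratio of mAC_Mito to mAC the interval ran from 0.613 to 1.06. Of its close relatives, Gdf7 averaged 0.889 FPKM and Gdf6 averaged 0.172 FPKM over the 6 libraries, and Gdf5 was above both in 6 of 6. Receptors that GDF5 can use were measured beside it. Bmpr1b, its high-affinity type I receptor, was at 1.022 ± 0.0604 FPKM in mAC_Mito and 1.025 ± 0.0174 FPKM in mAC (SD, n = 3), while Bmpr1a was at 25.62 ± 0.714 FPKM in mAC_Mito and 26.25 ± 1.08 FPKM in mAC. Its extracellular antagonist Nog, or noggin, was at 3.01 ± 0.472 FPKM in mAC_Mito and 2.73 ± 0.383 FPKM in mAC.

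Erg stood well above each of the 12 endothelial markers listed here. Eng, endoglin, was not among the 12 and was near Erg in level. It was at 8.768 ± 0.882 FPKM in mAC_Mito and 7.596 ± 0.546 FPKM in mAC (SD, n = 3). Erg was at 6.68, 7.37 and 6.88 FPKM in mAC_Mito 1, 2 and 3, and at 8.93, 7.2 and 6.9 FPKM in mAC 1, 2 and 3. mAC 1 was higher than the other 5 libraries, which lay within 6.68 to 7.37 FPKM. Erg had a log2 fold change of -0.17 (standard error 0.14, 95% interval -0.48 to 0.15), and 0.0097 without mAC 1. The 12 endothelial markers summed to 1.42 to 1.63 FPKM in mAC_Mito and 1.46 to 1.72 FPKM in mAC, most of it from Egfl7, at 1.091 ± 0.128 FPKM in mAC_Mito and 1.165 ± 0.121 FPKM in mAC. Pecam1, a junction protein of endothelium that leukocytes and platelets also carry, was at 0.0847 ± 0.0353 FPKM in mAC_Mito and 0.0717 ± 0.0216 FPKM in mAC, and Cdh5, VE-cadherin, at 0.132 ± 0.0233 FPKM in mAC_Mito and 0.119 ± 0.058 FPKM in mAC. Tek, an angiopoietin receptor, had the smallest unadjusted p of the list (0.353 in edgeR's model). Of the 12, 5 were too low to be tested, and Cldn5 and Robo4 were listed at 0 in all mAC_Mito libraries and Tie1 in all mAC libraries. The log2 ratio of Erg to the mean of the 12 markers was 5.82, 5.79 and 5.66 in mAC_Mito 1, 2 and 3 and 6.2, 5.82 and 5.59 in mAC 1, 2 and 3. It differed by -0.11 (exact permutation p = 0.8, two-sided, where 3 against 3 cannot go below 0.1; 0.8 adjusted over 3 ratios). Fli1, the nearest ETS relative of Erg, averaged 1.48 FPKM, and Erg exceeded it 4.19-fold to 6.04-fold within a library. Fli1 was at 1.34, 1.49 and 1.3 FPKM in mAC_Mito 1, 2 and 3 and at 1.48, 1.72 and 1.56 FPKM in mAC 1, 2 and 3. After TMM scaling its groups did not overlap, with mAC_Mito lower; its log2 fold change was -0.23 (standard error 0.15), not past the threshold (unadjusted p = 0.162 in edgeR's model).

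Osr1 was expressed and Osr2 was barely detected. Osr1 was at 5.27, 4.15 and 5.0 FPKM in mAC_Mito 1, 2 and 3, and at 5.24, 4.99 and 3.56 FPKM in mAC 1, 2 and 3. The groups overlapped almost fully, and the log2 fold change was 0.04 (standard error 0.2, 95% interval -0.4 to 0.48). It was -0.141 without mAC 3 and -0.075 without mAC_Mito 1. Osr2 had 4, 11 and 8 counts in mAC_Mito 1, 2 and 3 and 9, 23 and 4 counts in mAC 1, 2 and 3, which left it below the filter and without a test here. In the 5 alternatives that kept it, its log2 fold change ran from -0.983 to -0.259, with an edgeR adjusted p of 0.935 or more. These counts exceed the floor of 3 counts in every library, a floor that corresponds to 0.0439 to 0.0508 CPM. On FPKM, Osr1 exceeded Osr2 by 63.4-fold to 463-fold within a library, and the highest ratio rests on 4 Osr2 counts. The size of this gap depends on the length used. CPM per kilobase of the longest coding transcript averaged 5.62 for Osr1 (SD 1.02) and 0.09 for Osr2 (SD 0.0586). The log2 ratio of Osr1 to Osr2 averaged 7.64 ± 1.12 in mAC_Mito and 7.19 ± 1.13 in mAC (SD, n = 3), a difference of 0.45 (two-sided exact permutation p = 0.7; 0.8 adjusted over 3 ratios).

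Foxo3 was the more abundant of the 2 forkhead members. It was at 5.33, 7.53 and 6.97 FPKM in mAC_Mito 1, 2 and 3, and at 5.26, 5.7 and 5.37 FPKM in mAC 1, 2 and 3. mAC_Mito 2 and 3 were above every mAC library, and mAC_Mito 1 fell among them. Foxo3 had a log2 fold change of 0.25 (standard error 0.12, 95% interval -0.01 to 0.52), with the lowest unadjusted p of the members (0.0591 in edgeR's model). It stayed above 0 in each fit with 1 library left out (0.172 to 0.352), and without mAC_Mito 1 its unadjusted p was under 0.05 and its edgeR adjusted p 0.585. Foxo1 was at 2.63, 3.27 and 3.58 FPKM in mAC_Mito 1, 2 and 3, and at 3.5, 2.78 and 2.56 FPKM in mAC 1, 2 and 3. Its groups overlapped, with a log2 fold change of 0.07 (standard error 0.16, 95% interval -0.3 to 0.44), which was -0.055 without mAC 3 and -0.024 without mAC_Mito 3. The log2 ratio of Foxo1 to Foxo3 averaged -1.06 ± 0.13 in mAC_Mito and -0.9 ± 0.27 in mAC (SD, n = 3), a difference of -0.16 (two-sided exact permutation p = 0.6; 0.8 adjusted over 3 ratios). Without mAC 1 it was -0.007.

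Foxo4, a forkhead gene outside the set, was about as abundant as Foxo3. It took 35.3% to 48.9% of the summed FPKM of the 4 Foxo genes in a library, Foxo3 took 34.5% to 39.9%, Foxo1 took 16.5% to 25.4% and Foxo6 took 0.112% to 1.13%. Foxo3 exceeded Foxo4 in 2 of 6 libraries. Foxo4 was at 5.67, 7.98 and 6.83 FPKM in mAC_Mito 1, 2 and 3 and at 4.86, 6.12 and 7.6 FPKM in mAC 1, 2 and 3, with overlapping groups.

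**Figure D3:**
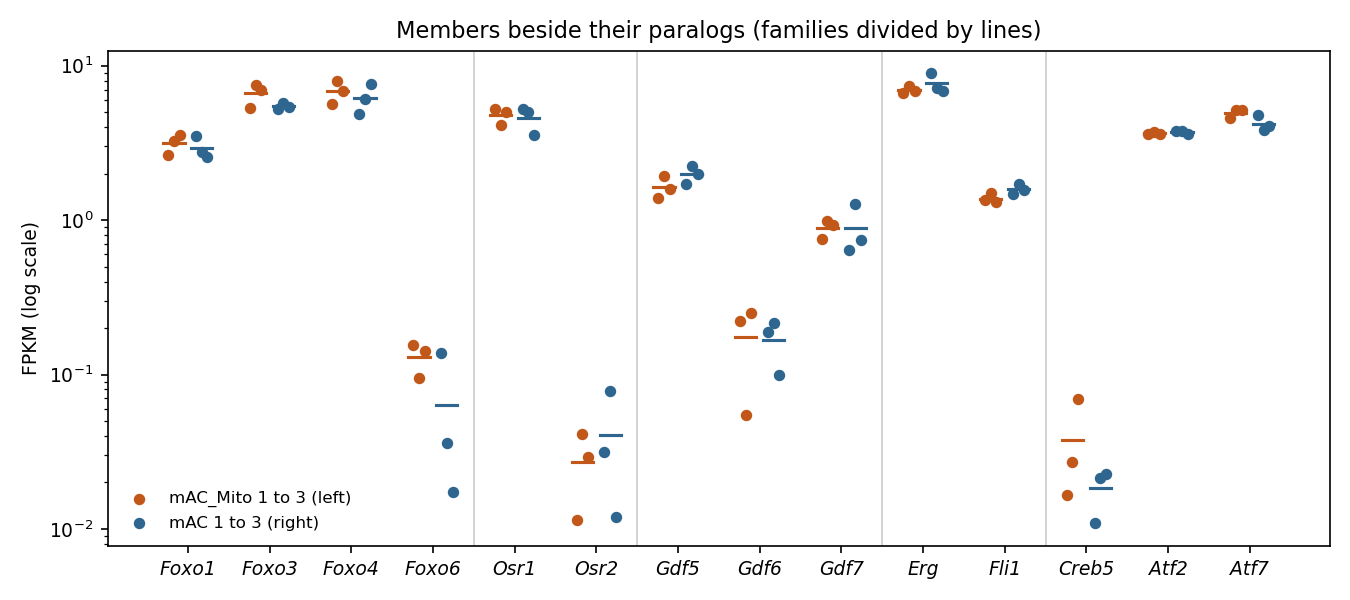
FPKM on a log axis of members beside paralogs, 1 point per library with mAC_Mito to the left and mAC to the right; bars are group means of 3 libraries. In every library Osr1, Gdf5 and Erg lie above their paralogs, Foxo4 lies near Foxo3, and Creb5 lies far below Atf2 and Atf7.

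Creb5 was the lowest member by FPKM. It had 32, 47 and 122 counts in mAC_Mito 1, 2 and 3, and 20, 42 and 42 counts in mAC 1, 2 and 3. mAC_Mito 3 stood above the other 5 libraries, at 1.99 CPM (exact Poisson 95% interval 1.65 to 2.38, counting error only), while the highest of the others, mAC_Mito 2, was at 0.772 CPM (0.568 to 1.03). The log2 fold change was 1.01 (standard error 0.54, 95% interval -0.2 to 2.22, unadjusted p = 0.0929 in edgeR's model), and 0.239 without mAC_Mito 3. Without mAC_Mito 1 it was 1.346, with an unadjusted p under 0.05 that did not pass adjustment. The summed level of the 10 macrophage and leukocyte markers was also highest in mAC_Mito 3, at 84.7, 72.6 and 117.3 FPKM in mAC_Mito 1, 2 and 3 and 64.6, 78.3 and 82.9 FPKM in mAC 1, 2 and 3. Most of that sum was Lyz2, the lysozyme gene of macrophages, with 67.8, 57.6 and 96.4 FPKM in mAC_Mito 1, 2 and 3 and 49.0, 62.3 and 68.7 FPKM in mAC 1, 2 and 3. The other 9 markers summed to 16.9 and 15.0 FPKM in mAC_Mito 1 and 2 and to 14.1 to 16.1 FPKM in mAC, all below their sum in mAC_Mito 3. Marker by marker, on TMM-scaled CPM, 5 of 10 were highest in mAC_Mito 3 and 5 in other libraries, among them Cd68 in mAC 1 and Ptprc, the pan-leukocyte gene, in mAC 3. All 10 were detected and 9 had a log2 fold change above 0, where 50.4% of all genes tested did. Itgam, the CD11b integrin, had an unadjusted p under 0.05 (0.034 in edgeR's model), 1 of 10 beside 3.19% of all genes, at 0.3475 ± 0.0903 FPKM in mAC_Mito and 0.1969 ± 0.0488 FPKM in mAC (SD, n = 3). Adgre1, Cd52 and Itgam had groups without overlap, higher in mAC_Mito, 3 of 10 beside 3.93% of all genes. Cd68 was at 8.112 ± 1.55 FPKM in mAC_Mito and 7.544 ± 1.92 FPKM in mAC, and Ptprc at 0.0602 ± 0.00739 FPKM in mAC_Mito and 0.0534 ± 0.0349 FPKM in mAC. The median log2 fold change of the 10 was 0.34, and 0.09 without mAC_Mito 3. Adipocyte markers also had their highest sum in mAC_Mito 3 (113.5 FPKM). So did the list of GDF5 receptors and of EGFR, PTHrP and TGF-beta signals (164.4 FPKM). Sums of the remaining lists peaked in other libraries. The part of any list in the Creb5 value was not tested.

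The FPKM of Creb5 rests on a long gene model. Its annotated exons cover 25021 bases of chromosome 6 (53287270 to 53700376, plus strand), while its longest coding transcript has 7917 bases and its FPKM is computed over the longer of these lengths. The related factors Atf2 and Atf7 were expressed at 3.69 and 4.59 FPKM over the 6 libraries, and Creb5 stood at 0.00228 to 0.0193 times either of them. Atf7 was at 4.56, 5.14 and 5.19 FPKM in mAC_Mito 1, 2 and 3 and at 4.77, 3.84 and 4.04 FPKM in mAC 1, 2 and 3, with overlapping groups (log2 fold change 0.21, standard error 0.12).

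Promoter sequences from RefSeq (GRCm38.p6, 300 bases around each annotated start) matched 5 members: Foxo1, Creb5, Foxo3, Barx1 and Erg, with 8 starts among them. Those of Creb5 are shown because the factor binds the cAMP response element (CRE) and was the lowest member by FPKM. Those of Barx1 and Foxo3 are shown because they set a gene near the detection limit beside an expressed one. Capitals mark the palindromic CRE, TGACGTCA.
Creb5, upstream start, chr6:53287053-53287352, plus strand: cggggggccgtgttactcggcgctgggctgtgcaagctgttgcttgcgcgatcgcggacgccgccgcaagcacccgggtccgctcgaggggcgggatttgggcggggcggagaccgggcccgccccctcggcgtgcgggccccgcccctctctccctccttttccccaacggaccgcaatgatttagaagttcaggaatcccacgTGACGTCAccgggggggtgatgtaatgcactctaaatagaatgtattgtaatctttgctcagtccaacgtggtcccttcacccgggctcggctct
Creb5, downstream start, chr6:53573124-53573423, plus strand: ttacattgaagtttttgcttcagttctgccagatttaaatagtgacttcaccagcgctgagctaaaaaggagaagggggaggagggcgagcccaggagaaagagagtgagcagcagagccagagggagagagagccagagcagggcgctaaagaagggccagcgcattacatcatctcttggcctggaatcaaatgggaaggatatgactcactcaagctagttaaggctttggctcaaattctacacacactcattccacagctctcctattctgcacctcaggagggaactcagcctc
Barx1, chr13:48662786-48663085, plus strand: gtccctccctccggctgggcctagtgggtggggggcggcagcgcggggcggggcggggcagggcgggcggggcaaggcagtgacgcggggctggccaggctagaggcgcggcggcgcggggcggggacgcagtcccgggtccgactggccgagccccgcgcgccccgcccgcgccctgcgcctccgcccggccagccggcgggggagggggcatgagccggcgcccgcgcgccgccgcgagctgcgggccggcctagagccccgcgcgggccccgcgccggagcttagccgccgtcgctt
Foxo3, chr10:42276646-42276945, minus strand: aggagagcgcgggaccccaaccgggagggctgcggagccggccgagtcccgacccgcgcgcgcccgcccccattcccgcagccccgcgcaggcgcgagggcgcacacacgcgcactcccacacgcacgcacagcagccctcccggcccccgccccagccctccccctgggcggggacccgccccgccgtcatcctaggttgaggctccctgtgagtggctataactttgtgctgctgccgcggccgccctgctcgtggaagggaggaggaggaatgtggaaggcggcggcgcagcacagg

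The CRE occurred at position 206 of the upstream Creb5 window, counted from its first base, and in 1 of the 8 member windows. Over all 32851 promoter windows of the table, 1.79% held it. The forkhead motif TGTTTAC, the ETS motif CCGGAAG and the E-box CATCTG, searched on both strands, were in 0 of the 8 windows, and in 3.65%, 8.86% and 17.2% of all windows. CG dinucleotides numbered 31 in the upstream Creb5 window, 4 in the downstream one, 50 in that of Barx1, 35 in that of Foxo3 and 31 in that of Foxo1, where the median of all windows was 7 and the upper quartile 20. The 3 windows of Erg held 16, 2 and 4.

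Barx1, the homeobox gene of the set, was near the detection limit, as was Osr2. It had 15, 13 and 10 counts in mAC_Mito 1, 2 and 3, and 12, 6 and 32 counts in mAC 1, 2 and 3. mAC held both its highest and its lowest library. In mAC 3 it reached 0.498 CPM (exact Poisson 95% interval 0.341 to 0.703) and in mAC 2 it was at 0.0876 CPM (0.0321 to 0.191). The log2 fold change was -0.37 (standard error 0.71, 95% interval -1.98 to 1.23), and 0.462 without mAC 3. As a ratio of mAC_Mito to mAC the interval ran from 0.254 to 2.35.

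Scx, the tendon factor, was the second member by FPKM. It was at 13.4, 14.7 and 13.4 FPKM in mAC_Mito 1, 2 and 3, and at 10.3, 14.4 and 16.2 FPKM in mAC 1, 2 and 3. The mAC_Mito libraries lay close together inside the wider mAC range. The log2 fold change was 0.0029 (standard error 0.13, 95% interval -0.3 to 0.3), the smallest of the members. Scx lies on chromosome 15 (76457452 to 76459458, plus strand) inside Bop1, a ribosome assembly gene on the minus strand, with 0 exonic bases in common. Bop1 had 4246 to 5762 counts a library, and its averages were 22.06 ± 0.776 FPKM in mAC_Mito and 23.05 ± 1.87 FPKM in mAC (SD, n = 3). The gene model of Scx is a single block of 2007 bases that takes in its intron, so that unspliced Bop1 reads could be counted to it if strand was not used.

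For 5 of the 7 members above 1 FPKM (Prg4, Erg, Osr1, Foxo1 and Scx), mAC 1 and mAC 3 were the 2 extreme libraries on TMM-scaled CPM; on FPKM this held for 2, Prg4 and Scx. Gdf5 and Foxo3 had other extremes. On TMM-scaled CPM, mAC 1 was the highest library for 4 of them (Prg4, Erg, Osr1 and Foxo1) and mAC 3 the lowest for 5 (the same genes and Foxo3). Scx ran the other way, highest in mAC 3 and lowest in mAC 1. On FPKM as deposited these counts were 2 and 3, so mAC 1 as the highest library of Osr1 and Foxo1, and mAC 3 as the lowest of Erg and Foxo3, depend on scaling. Prg4 was highest in mAC 1 and lowest in mAC 3 on both scales. The share of all genes with these extreme libraries was not computed. These counts are therefore not read as a trait of the members. On TMM-scaled CPM, Bgn and Fmod, outside the set, had the same highest and lowest libraries as Prg4, while Col2a1 and Cnmd had others. TMM factors were 0.963 in mAC 1 and 1.03 in mAC 3, the lowest and highest of the 6. Genes of the mitochondrial chromosome took 7.38% of counts in mAC 1 and 3.18% in mAC 3, against 2.95% to 5.66% in the other libraries; their part in the member pattern was not tested.

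**Figure D4:**
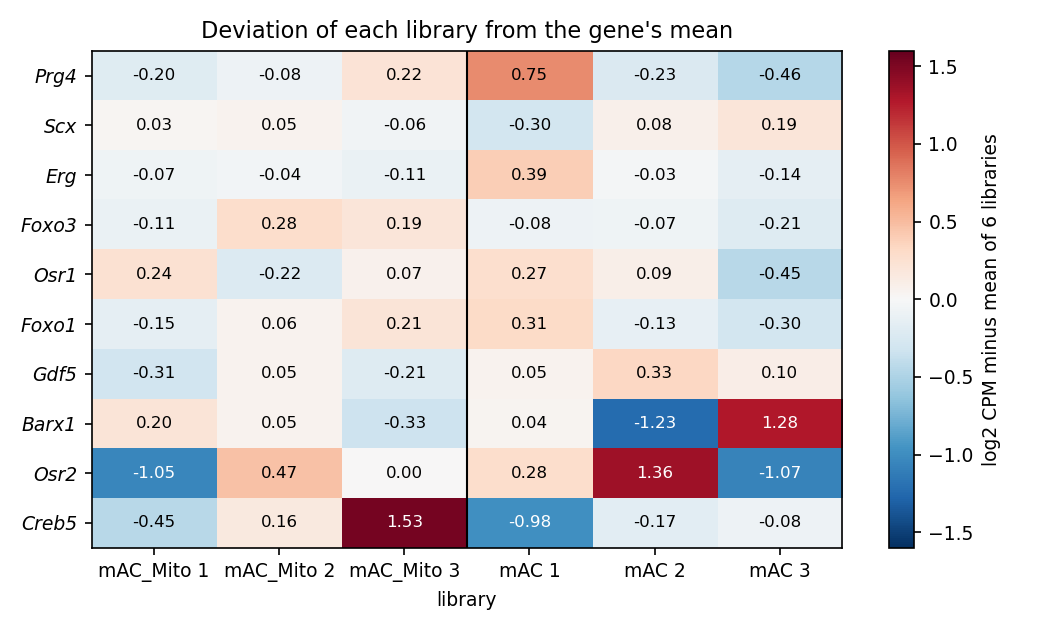
Log2 CPM (TMM-scaled) of each member in each library minus the gene's mean over 6 libraries, with mAC_Mito libraries to the left of the line and mAC to the right; red is above the mean and blue below. Prg4 is at 0.75 in mAC 1 and -0.46 in mAC 3, Creb5 at 1.53 in mAC_Mito 3, and the 3 lowest genes vary most.

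Other genes of the same biology were read from lists. Of the 152 listed genes tested, 0 passed an adjusted p of 0.05 in edgeR, DESeq2 or limma. An unadjusted p under 0.05 was found for 4 of them in edgeR, 6 in DESeq2 and 4 in limma, beside shares of 3.19%, 3.44% and 3.1% over all genes. Of the 16 superficial zone and articular progenitor genes, 8 had a log2 fold change above 0 and 8 below, with 0 at an unadjusted p under 0.05. Their median was -0.01 and changed sign with the library left out (-0.045 to 0.042). Itgb1, the beta-1 integrin, was at 209.6 ± 22.0 FPKM in mAC_Mito and 219.9 ± 27.9 FPKM in mAC, and the secreted protein Dkk3 at 55.31 ± 4.22 FPKM in mAC_Mito and 52.1 ± 3.65 FPKM in mAC (SD, n = 3). Abi3bp, an extracellular matrix protein, was at 4.31, 4.47 and 4.45 FPKM in mAC_Mito 1, 2 and 3 and at 6.39, 4.8 and 4.73 FPKM in mAC 1, 2 and 3. Its groups did not overlap, and its log2 fold change was -0.3 (standard error 0.15, unadjusted p = 0.0805 in edgeR's model); mAC 1 stood apart from the other mAC libraries. Clic5, which marks the synovial lining beside Prg4 in human joints, was at 0.00936 ± 0.0071 FPKM in mAC_Mito and 0.011 ± 0.00959 FPKM in mAC.

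Of 12 tested interzone genes and BMP antagonists, 9 were above 0 and 3 below, where 50.4% of all genes tested were above 0. An unadjusted p under 0.05 was found for 0 of them. The median was 0.12, and 0.031 without mAC 3, 0.063 without mAC_Mito 3 and 0.193 without mAC 1. Grem1, a BMP antagonist, was at 63.96 ± 4.46 FPKM in mAC_Mito and 63.08 ± 1.39 FPKM in mAC, and Jun at 19.06 ± 1.4 FPKM in mAC_Mito and 17.2 ± 0.546 FPKM in mAC. Chrdl2, a chordin-like antagonist, was low in both groups, at 0.0788 ± 0.0379 FPKM in mAC_Mito and 0.155 ± 0.0381 FPKM in mAC, with groups that did not overlap (log2 fold change -0.97, standard error 0.5, unadjusted p = 0.0805 in edgeR's model). Wnt16 was at 1.22 ± 0.17 FPKM in mAC_Mito and 0.99 ± 0.0567 FPKM in mAC, also without overlap. That makes 1 of 12 without overlap in each direction, where 3.93% of all genes tested were higher in mAC_Mito and 4.38% lower.

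The list of GDF5 receptors and of EGFR, PTHrP and TGF-beta signals had 12 of 14 tested genes above 0, with a median of 0.11, where 50.4% of all genes tested were above 0. None had an unadjusted p under 0.05. Groups without overlap, higher in mAC_Mito, were found for 2 of 14, beside 3.93% of all genes tested. Those were Tgfb3, a TGF-beta ligand, at 32.21 ± 1.91 FPKM in mAC_Mito and 28.5 ± 1.08 FPKM in mAC, and its receptor Tgfbr2, at 37.92 ± 3.32 FPKM in mAC_Mito and 33.66 ± 0.965 FPKM in mAC (SD, n = 3). Both log2 fold changes were 0.15. The median of the list was 0.047 without mAC_Mito 3 and 0.042 without mAC 2. Pthlh, which encodes PTHrP, was too low to be tested, and its receptor gene Pth1r was at 8.662 ± 1.05 FPKM in mAC_Mito and 8.443 ± 0.759 FPKM in mAC.

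Targets of FOXO factors were described beside Foxo1 and Foxo3. Of 19 genes, 12 were above 0 and 7 below, with a median of 0.08, where 50.4% of all genes tested were above 0. Irs2, an adaptor of insulin signalling, was the only one with an unadjusted p under 0.05 (0.00816 in edgeR's model), 1 of 19 beside 3.19% of all genes. It was at 1.56, 2.11 and 2.22 FPKM in mAC_Mito 1, 2 and 3 and at 1.32, 1.33 and 1.55 FPKM in mAC 1, 2 and 3, without overlap, and its log2 fold change was 0.46 (standard error 0.14), not past the adjusted threshold. The most abundant targets, Bnip3, a mitophagy receptor, and Txnip, an inhibitor of thioredoxin, were at 120.3 ± 5.78 and 50.4 ± 1.06 FPKM in mAC_Mito and at 125.6 ± 8.15 and 50.87 ± 4.07 FPKM in mAC.

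Of 13 tested tendon and ligament genes, 5 were above 0 and 8 below (median -0.05), with 0 at an unadjusted p under 0.05. The summed level of the list was highest in mAC 1 (1528.0 FPKM) and lowest in mAC 3 (981.5 FPKM), opposite to Scx. The abundant matrix proteoglycans Bgn and Fmod were at 604 ± 55.4 and 342.8 ± 24.1 FPKM in mAC_Mito and at 617.4 ± 196.3 and 356.9 ± 61.0 FPKM in mAC. Tnmd, a tendon membrane protein that Scx activates, was at 21.61 ± 1.38 FPKM in mAC_Mito and 22.86 ± 0.791 FPKM in mAC. The matrix glycoprotein Tnc had the smallest unadjusted p of the list, at 33.68 ± 7.59 FPKM in mAC_Mito and 26.85 ± 3.48 FPKM in mAC (log2 fold change 0.29, standard error 0.17).

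Markers of the labelled cell type were abundant. The 15 chondrocyte markers were all tested and summed to 2900.5 to 3991.6 FPKM in mAC_Mito and 2924.7 to 3642.5 FPKM in mAC, with Sox9 at 22.4 ± 2.83 FPKM in mAC_Mito and 20.26 ± 2.71 FPKM in mAC. Col2a1, the main collagen of cartilage, led the list, and Cnmd, chondromodulin, followed at 604.2 ± 2.75 FPKM in mAC_Mito and 644.9 ± 71.3 FPKM in mAC. Acan, aggrecan, had the smallest unadjusted p of the list (0.0812 in edgeR's model), at 103.5 ± 36.1 FPKM in mAC_Mito and 75.06 ± 9.24 FPKM in mAC, with overlapping groups. Col1a1, from the list of osteoblast and osteocyte markers, was also abundant. It was at 494.4 ± 195.7 FPKM in mAC_Mito and 345.5 ± 62.9 FPKM in mAC, with overlapping groups. The 12 synovial fibroblast markers summed to 101.9 to 125.7 FPKM in mAC_Mito and 109.6 to 143.9 FPKM in mAC, led by the surface proteins Pdpn and Thy1. Their highest sum, 143.9 FPKM, was in mAC 1, the library with the highest Prg4, and Pdpn and Thy1 made up 106.0 FPKM of it. The other 10 summed to 38.0 to 39.5 FPKM in mAC_Mito and 37.4 to 38.0 FPKM in mAC. With each of the 12 weighted equally, the mean log2 deviation was highest in mAC_Mito 1 (0.17) and stood at 0.03 in mAC 1. The tendon and ligament list also had its highest sum in mAC 1, with a mean log2 deviation of 0.27 there and -0.18 in mAC 3. The part of either list in the Prg4 value was not tested. Of the 12 synovial fibroblast markers, 3 were above 0 and 9 below, with a median of -0.15 (-0.059 without mAC_Mito 2 and without mAC 1). Pi16 alone had an unadjusted p under 0.05 (0.0271 in edgeR's model, 1 of 12 beside 3.19% of all genes), and in the other direction, at 0.0561 ± 0.00347 FPKM in mAC_Mito and 0.02116 ± 0.00214 FPKM in mAC (SD, n = 3). Markers of skeletal muscle had 9 of 9 tested genes above 0 (median 0.29) and those of adipocytes 8 of 8 (median 0.17). Over all genes tested, 50.4% were above 0. The summed levels of both lists overlapped between the groups and were lowest in mAC 1. For muscle the highest sum was also in the mAC group, in mAC 3 (73.4 FPKM). The muscle median was 0.16 without mAC 1 and 0.447 without mAC 3. The adipocyte median was 0.095 without mAC 1 and 0.308 without mAC 3. Lpl, the lipoprotein lipase gene, was at 13.84 ± 1.09 FPKM in mAC_Mito and 11.42 ± 1.51 FPKM in mAC, without overlap (unadjusted p = 0.0288 in edgeR's model) and was the only gene of these lists under 0.05. Total counts ranged from 59116068 to 68378213 a library.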

How the data were processed

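The authors deposited 1 table with raw read counts per gene and FPKM for each of the 6 libraries, per the file headers; neither was altered. Per the submitters' processing notes the tools were Bowtie 0.12.2, StringTie 1.3.0 and HISAT2 2.0 and the build was mm8, with no role stated. The table's coordinates are those of GRCm38: 24147 of 26902 gene identifiers shared with GENCODE M21 had the same span. How reads were counted, and whether by strand, is not given in the sources used here.

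Counts were tested with edgeR 4.0.16 in R 4.3.3 (quasi-likelihood F test, filterByExpr with minimum count 10 and minimum total 15, TMM scaling, two-sided, Benjamini-Hochberg over 17645 genes, threshold 0.05), which was tested on simulated data first. Standard errors and 95% intervals are those implied by the F statistic. DESeq2 1.42.0 and limma 3.58.1 on log2(FPKM + 1) or log2(FPKM + 0.1) were alternatives, as were other scalings and filters, a replicate block and each library left out. Overlap between groups was read on TMM-scaled CPM. Within-library ratios were compared by exact permutation (scipy 1.17.1).

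The members and the gene lists were chosen with earlier results of these data known. Genes named from a list are its 2 members highest in FPKM, the one with the smallest unadjusted p and any past the threshold; others were named after their values were seen. Of the genes listed, Hoxd11, Tcf15, Pax7 and Mepe are not analysed here. Lists of osteoblast and immediate early genes were also computed, with medians of 0.13 (6 of 7 above 0) and -0.02 (3 of 10 above 0). Over all genes tested, the share above 0 was 50.4%. No 2 libraries agreed within sampling noise (chi-square per degree of freedom 22.1 or more).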

Additional observations from a re-analysis of the deposited data

How the results depend on the processing

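No member passed an adjusted p of 0.05 under any of the 14 alternatives run. The number of genes called over the whole table was 2; it was 0 without a filter on low counts (760 at an unadjusted p under 0.05), 1 with at least 10 counts required in every library, 4 with DESeq2, 1 with limma on log2(FPKM + 1), and 0 to 4 with 1 library left out. Same-numbered libraries deviated together with correlations of 0.124, -0.06 and -0.012, so the numbers were not taken as pairs; with the replicate block 2 genes were called.

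With 1 library left out, log2 fold changes ran from -0.352 to 0.336 for Prg4, -0.271 to 0.0097 for Erg, -0.141 to 0.197 for Osr1, -0.055 to 0.264 for Foxo1, -0.793 to 0.462 for Barx1 and -0.124 to 0.106 for Scx, each with a change of sign. Gdf5, Foxo3 and Creb5 kept their sign in the alternatives run. Scx was also below 0 with RLE scaling (-0.00061), upper quartile scaling (-0.0029) and DESeq2 (-0.00065). The ratio differences ran from -0.159 to 0.961 for Osr1 to Osr2, from -0.254 to 0.053 for Erg to endothelial markers and from -0.247 to -0.007 for Foxo1 to Foxo3. Of 196 recomputed list medians, 10 moved beyond the spread between replicates, all with a library left out. The order of levels kept 9 of 9 neighbouring pairs with TMM scaling and 7 with coding transcript length, a choice made after seeing the data. Osr2 passed the filter in 5 of the alternatives, with no call. Low counts limit what can be seen for Osr2, Barx1 and Creb5. The causes of these changes were not tested.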
